A study of Mus musculus with 4 samples.

Results

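Solute carriers are membrane proteins that move amino acids, sugars, nucleotides, vitamins and ions across the cell surface and the membranes of organelles. Those reported here are the genes of mouse bone-marrow macrophages whose symbol starts with Slc and a number, which have at least 1 protein-coding transcript, and whose mean level over 4 libraries was at least 5 TPM (a relative transcript level corrected for length). 10 carriers of iron, arginine, cystine, glucose and lactate, which are Slc40a1, Slc11a1, Slc11a2, Slc7a11, Slc7a1, Slc7a2, Slc2a1, Slc2a6, Slc16a1 and Slc16a3, were left out by name. Of 371 protein-coding Slc genes among the 55536 genes of the tables, 135 reached the threshold, 7 of them were among the 10 left out, and 128 remained. Because the levels chose the members, levels are given as a description with no test.

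The cells were macrophages of the C57BL/6J strain grown from bone marrow. All 4 libraries belong to 1 group and received a stimulus at 100 ng/mL for 60 minutes. One label field calls the stimulus lipid A, the anchor of bacterial lipopolysaccharide sensed by the receptor TLR4, and the others call it lipoprotein A. No unstimulated cells were analysed here, so no value below is a response to the stimulus. Biological replicates are numbered 1 to 4 in the labels, each was sequenced as 1 technical replicate, and all share 1 donor label, with sex and age not collected. Nothing says that they came from separate cultures, so differences between them may be technical, and in such bulk samples fewer cells of a type and less RNA per cell cannot be told apart.

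Carriers of a family share a fold and often, but not always, a kind of substrate. Macrophages take up and digest particles, and carriers in the lysosomal membrane release the amino acids, nucleosides, sugars and heme that digestion sets free. Carriers of the mitochondrial inner membrane pass adenine nucleotides, phosphate and metabolites between the matrix and the cytosol, and those of the Golgi supply sugar donors for glycosylation.

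All 8 macrophage markers (Lyz2, Csf1r, Adgre1, Cd68, Itgam, Mertk, Fcgr1 and Cd14) reached 1 TPM in every library. Their levels were not even, and by TPM each library was the highest for 2 of the 8. Lyz2, Csf1r and Mertk, 3 of the 8, were variable by the rule given below, against 21.5% of the 8040 protein-coding genes at 5 TPM or more. Csf1r had 526, 1155, 625 and 852 TPM in replicates 1 to 4, whereas Itgam had 152, 78.1, 72.5 and 73.7 TPM. The summed markers of T cells, B cells, erythroid cells, mast cells and stromal cells each stayed under 3 TPM in every library. The 8 neutrophil markers summed to 745 TPM in replicate 3, against 78.8 to 223 TPM in the others. S100a8 and S100a9 gave 181 and 457 TPM of the sum in replicate 3. By TPM 7 of the 8 were highest in replicate 3, while Mmp8 was highest in replicate 1. The 8 proliferation markers summed to 964 TPM in replicate 1, against 261 to 520 TPM in the others. Pcna alone gave 653 TPM of the sum in replicate 1. By TPM 7 of the 8 were highest in replicate 1, while Mki67 was highest in replicate 2. Gene counts totalled 26917324 to 39438414 per library, and ribosomal RNA genes took 3.43% to 12.4% of them, the most in replicate 1.

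The members' promoters were searched for short motifs, and those shown here carry the most common of them in genes whose levels are described below. RefSeq promoters on GRCm38.p6, 250 bases before to 50 bases after a gene's start, were matched to 101 of the 128 members. The letters CACGTG, an E-box that reads the same on both strands and that factors of the Myc and TFE families are known to bind, stood in 18 of them (17.8%), against 736 of 6477 promoters of all genes at the same level (11.4%). Each line below gives the 250 bases before the start, 5′ to 3′ along the gene, with the E-box in capitals. They are the promoters of Slc25a13 and Slc12a7, variable members highest in replicate 1, and of Slc36a1 and Slc38a7, lysosomal members. They were chosen for holding an E-box in these 250 bases and starting within 100 bases of their main transcript. For Slc25a13 that was Slc25a13-201, which led in replicates 2 to 4 with 81.5% to 86.8% of the gene's TPM. In replicate 1 it held 38.5%, and Slc25a13-203 led. Over the full promoters, an E-box stood in 3 of 10 lysosomal and endosomal members and 4 of 20 mitochondrial ones. It stood in 3 of 25 at the surface and 2 of 19 of the Golgi and endoplasmic reticulum. Of variable members it stood in 3 of 7 highest in replicate 1. It also stood in 3 of 11 lowest there, Slc36a1 among these. A link to location or library was not tested.
Slc25a13, chr6:6217174-6217423, minus strand: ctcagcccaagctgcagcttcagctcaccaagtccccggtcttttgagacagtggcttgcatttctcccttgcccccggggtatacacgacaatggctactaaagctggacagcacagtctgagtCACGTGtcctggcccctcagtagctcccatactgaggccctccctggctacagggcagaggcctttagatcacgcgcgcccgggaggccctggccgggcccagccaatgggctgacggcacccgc
Slc12a7, chr13:73763447-73763696, plus strand: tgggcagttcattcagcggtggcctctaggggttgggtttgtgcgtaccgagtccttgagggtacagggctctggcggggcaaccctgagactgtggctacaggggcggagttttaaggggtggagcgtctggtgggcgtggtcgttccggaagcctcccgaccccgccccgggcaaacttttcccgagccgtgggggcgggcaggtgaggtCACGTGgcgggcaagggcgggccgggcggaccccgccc
Slc36a1, chr11:55204090-55204339, plus strand: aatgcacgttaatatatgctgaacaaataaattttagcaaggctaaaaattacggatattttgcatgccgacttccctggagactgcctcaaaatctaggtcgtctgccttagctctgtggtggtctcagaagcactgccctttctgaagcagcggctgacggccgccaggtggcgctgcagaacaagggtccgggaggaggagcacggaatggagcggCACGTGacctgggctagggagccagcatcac
Slc38a7, chr8:95853492-95853741, minus strand: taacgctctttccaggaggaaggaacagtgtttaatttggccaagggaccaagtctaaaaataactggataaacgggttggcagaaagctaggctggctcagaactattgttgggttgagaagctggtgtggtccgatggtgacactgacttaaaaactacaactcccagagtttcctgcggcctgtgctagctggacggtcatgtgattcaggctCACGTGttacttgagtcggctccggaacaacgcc
The E-box ended 119 bases before the RefSeq start in Slc25a13, 32 in Slc12a7, 25 in Slc36a1 and 28 in Slc38a7. In Slc38a7 that start lay 48 bases inside the annotated gene, so its E-box fell within the gene. Among other motifs searched on both strands, TGATGNAA (an amino acid response element) stood in 2 of 101 promoters (1.98%), against 2.27% of the 6477. TGACTCA (an AP-1 site) stood in 3 (2.97%), against 3.61%. The CLEAR element, an extended E-box of TFE factors, and a kappa B site stood in none of the 101, against 0.926% and 0.201% of the 6477. A match is a run of letters and not a measured binding site.

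Levels of the members spanned 5.06 to 419 TPM. 12 members averaged 100 TPM or more, 52 lay from 20 to 100 TPM and 64 from 5 to 20 TPM, 26 of these under 10 TPM. They came from 37 of 49 families, and the 26 members of family 25, most of them mitochondrial carriers, were the most numerous. The 49 include families 11 and 40, whose genes were all left out by name. In every library 120 of the 128 were at 5 TPM or more. Together they summed to 5814, 6139, 5409 and 6006 TPM in replicates 1 to 4, a mean of 5842 ± 318 TPM (SD, n = 4). That was 0.690% to 0.739% of the TPM of nuclear protein-coding genes. The 10 highest members held 45.9% of the sum. Just inside the threshold were Slc22a5 (5.73 TPM), Slc16a13 (5.52 TPM) and Slc46a1 (5.06 TPM), and just outside it Slc35d1 (4.90 TPM), Slc37a4 (4.87 TPM) and Slc25a32 (4.54 TPM). Of the other solute carrier genes, 99 of the 371 were listed at 0 in every library and 192 were below 1 TPM in every library.

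**Figure D1:**
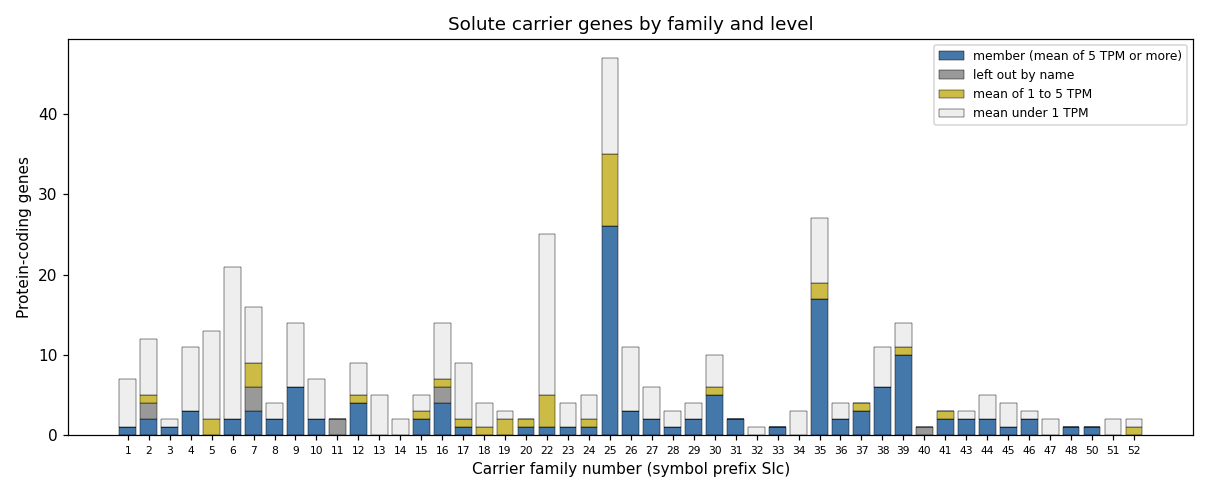
Number of protein-coding Slc genes (vertical axis) in each of the 49 carrier families (horizontal axis), stacked by mean TPM over 4 libraries. Family 25 had 26 members of 47 genes, family 35 had 17 of 27 and family 39 had 10 of 14, while family 22 had 1 of 25 and family 6 had 2 of 21.

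Whole families differed in how many genes were expressed. Family 22, which holds organic cation and anion carriers of liver and kidney, had 1 member of 25 genes, the carnitine carrier Slc22a5. Family 6, largely neurotransmitter carriers, had 2 of 21, the taurine carrier Slc6a6 and the creatine carrier Slc6a8. Both copper carriers of family 31, the heme carrier of family 48, the acetyl-CoA carrier of family 33 and the sugar carrier of family 50 were members.

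Family 25, taken here as the group of mitochondrial carriers, had the highest summed level, at 1401 ± 106 TPM over 26 members of 47 genes. Not all of these were placed in the mitochondrial inner membrane, Slc25a17 for 1. Slc25a5, an ADP/ATP carrier (ENSMUSG00000016319.3, chrX:36795651-36798807 on mm10, plus strand), had 503, 434, 351 and 383 TPM in replicates 1 to 4. Processed copies of this gene are known, and how many reads they share with it was not tested. Slc25a3, which imports phosphate for ATP synthesis, had 344, 294, 302 and 322 TPM, and Slc25a4, another ADP/ATP carrier, had 97.6, 69.1, 68.3 and 58.95 TPM. Both ADP/ATP carriers were highest in replicate 1. The mitochondrial glutathione carrier Slc25a39 averaged 71.8 ± 2.73 TPM (SD, n = 4), the oxoglutarate carrier Slc25a11 68.7 ± 6.98 TPM, the citrate carrier Slc25a1 52.8 ± 5.04 TPM and the NAD carrier Slc25a51 37.7 ± 7.83 TPM. Slc25a39 and Slc25a11 were among the 5 members of lowest dispersion (edgeR, tagwise), though not of narrowest range. The iron importer Slc25a37 had 18.8, 42.5, 21.5 and 46.1 TPM, low in replicates 1 and 3 and high in replicates 2 and 4, while its paralog Slc25a28 stayed between 12.5 and 18.01 TPM.

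Amino acid carriers followed with 1382 ± 135 TPM over 16 members of 63 genes. The 63 also count Slc7a11, Slc7a1 and Slc7a2, which were left out by name and are not in the sum. Slc3a2 is the heavy chain that brings several light chains of family 7 to the cell surface (ENSMUSG00000010095.13, chr19:8706882-8723369, minus strand). It had 379, 353, 341 and 401 TPM in replicates 1 to 4. The taurine carrier Slc6a6 (chr6:91684053-91759066, plus strand) had 225, 387, 257 and 387 TPM. Slc43a2, which carries large neutral amino acids (chr11:75531694-75577575, plus strand), had 144, 341, 211 and 272 TPM. Both Slc6a6 and Slc43a2 were lowest in replicate 1 and higher in replicates 2 and 4 than in the others, whereas Slc3a2 was nearly level. Slc7a8, a light chain of Slc3a2 for neutral amino acids (ENSMUSG00000022180.7, chr14:54722209-54781946, minus strand), had 251 TPM in replicate 1 and 59.2, 48.4 and 43.8 TPM in replicates 2 to 4. Its mean of 101 ± 100.5 TPM (SD, n = 4) therefore describes no single library. Slc7a7, the light chain for cationic amino acids, stayed between 32.9 and 42.9 TPM. The glutamine carriers of family 38 at the cell surface averaged 38.6 ± 13.1 TPM (Slc38a2) and 36.5 ± 5.33 TPM (Slc38a1). These neighbours lie 44.5 kb apart on chromosome 15, yet Slc38a2 was at 19.0 TPM in replicate 3, against 44.2 to 45.9 TPM in the others, where Slc38a1 had 29.6 TPM against 35.3 to 41.9 TPM. Slc1a5, a neutral amino acid exchanger that takes glutamine, stood lower, at 13.1, 7.90, 4.37 and 8.14 TPM.

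Carriers of metals held 620 ± 45.6 TPM over 19 members of 32 genes, and 10 of the 14 genes of the zinc importer family 39 were among them. The 32 also count Slc40a1, Slc11a1 and Slc11a2, which were left out by name and are not in the sum. Slc40a1, the only gene of its family, averaged 317 TPM, and the highest mean in family 11 was 346 TPM. Slc39a1, a zinc importer of the cell surface, averaged 162 ± 5.24 TPM (SD, n = 4) and stayed between 157 and 169 TPM. Slc39a7, which releases zinc from the endoplasmic reticulum, averaged 80.7 ± 13.2 TPM. The copper importer Slc31a1 had 66.6, 90.1, 66.3 and 84.9 TPM, and its neighbour 62.3 kb away on chromosome 4, the endosomal Slc31a2, had 71.2, 92.9, 53.5 and 54.2 TPM. The zinc exporter of the cell surface, Slc30a1, had 13.1, 20.7, 25.8 and 22.8 TPM. Slc39a14 and Slc39a8, importers of zinc, iron and manganese, had 16.9 and 17.2 TPM in replicate 1, and neither passed 7.25 TPM in any other library.

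Peptide and monocarboxylate carriers were led by 1 gene. Slc15a3, which exports histidine and small peptides from the lysosome (ENSMUSG00000024737.2, chr19:10839727-10859362, plus strand), had 353, 370.1, 513 and 441 TPM in replicates 1 to 4, with a mean of 419 ± 73.3 TPM, next to 418 ± 66.4 TPM for Slc25a5, a difference far within the spread between libraries. It overlaps Tmem132a on the other strand by 1541 bases, and the strand setting of the counts is not given in the sources used here. Slc16a10, which carries aromatic amino acids, had 63.3, 25.2, 37.1 and 30.6 TPM. The monocarboxylate carrier Slc16a7 had 22.1, 48.0, 35.1 and 37.8 TPM. Replicate 1 was thus highest for Slc16a10 and lowest for Slc16a7.

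Nucleotide sugar carriers and their relatives of family 35 summed to 453 ± 36.4 TPM over 17 members of 27 genes. None of the 17 was called variable by the rule given below, a call met by 21.5% of the 8040 protein-coding genes at the same level. Slc35f6 averaged 82.3 ± 12.1 TPM, Slc35a4 73.0 ± 17.5 TPM and Slc35b2, which brings the sulfate donor PAPS into the Golgi, 54.6 ± 15.2 TPM. The carriers of UDP-galactose (Slc35a2, 17.7 ± 1.5 TPM), GDP-fucose (Slc35c1, 9.24 ± 1.30 TPM) and CMP-sialic acid (Slc35a1, 8.75 ± 2.51 TPM) were lower.

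Ion exchangers and cotransporters summed to 362 ± 54.9 TPM over 14 members of 41 genes. Slc9a9, a sodium-proton exchanger of endosomes, had 76.1, 189.8, 159 and 149.8 TPM, lowest in replicate 1. Slc8b1, the mitochondrial sodium-calcium exchanger, had 18.6, 39.5, 28.9 and 32.4 TPM. Among bicarbonate carriers, the sodium-coupled Slc4a7 had 21.1, 7.53, 5.44 and 8.67 TPM, and the anion exchanger Slc4a2 had 21.4, 21.3, 16.0 and 20.8 TPM.

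The smaller groups are given with their leading genes. Among carriers of vitamins and cofactors (266 ± 33.6 TPM), the lysosomal heme exporter Slc48a1 averaged 131 ± 7.38 TPM (SD, n = 4), followed by Slc46a3 at 68.4 ± 31.1 TPM and the ascorbate carrier Slc23a2 at 44.2 ± 7.99 TPM. Among sugar carriers (207 ± 12.2 TPM), Slc37a2, which exchanges glucose 6-phosphate for phosphate, averaged 118 ± 30.7 TPM, and the other 6 had means under 32 TPM. Among carriers of nucleosides (106 ± 26.6 TPM) the surface carrier Slc29a1 averaged 52.8 ± 14.4 TPM and the lysosomal Slc29a3 45.0 ± 16.2 TPM. Among carriers of phosphate, sulfate and organic anions (110 ± 26.9 TPM), the phosphate importer Slc20a1 averaged 47.0 ± 10.1 TPM. All 5 of that group were highest in replicate 2 by scaled count, against 21.5% of the 8040 genes at the same level. Carriers of lipids (93.4 ± 14.6 TPM) and of choline and organic cations (61.6 ± 3.78 TPM) were led by Slc27a1, a fatty acid carrier, at 51.7 ± 12.3 TPM and by the choline carrier Slc44a1 at 32.9 ± 8.45 TPM. 3 genes that bear an Slc symbol are not carriers, and of these the scaffold protein gene Slc9a3r1 averaged 168 ± 15 TPM.

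**Figure D2:**
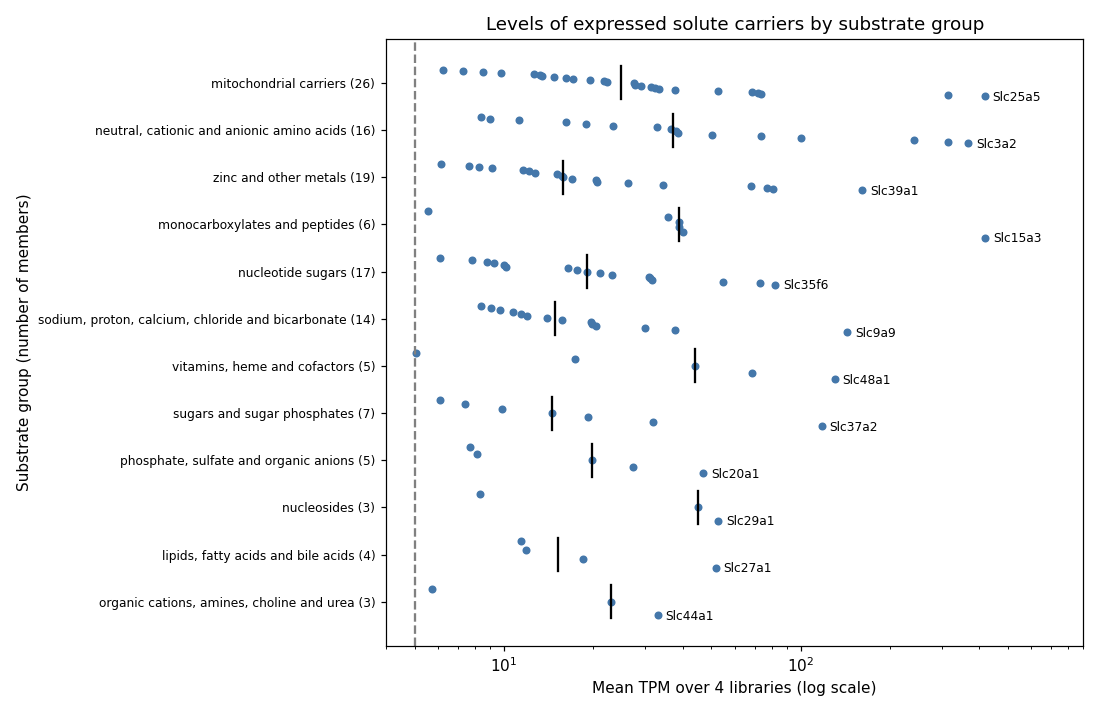
Mean TPM over 4 libraries on a log axis (horizontal) of 125 carriers, 1 point each, in 12 substrate groups (vertical), with the median of each group as a bar, the threshold of 5 TPM as a dashed line and the highest member named. Slc15a3 (419 TPM) and Slc25a5 (418 TPM) stand highest, and the nucleoside carriers Slc29a1 (52.8 TPM) and Slc29a3 (45.0 TPM) lie close together.

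How far the libraries differed was measured on expected counts scaled for library size (edgeR TMM) and set against counting noise. A gene was called variable where the chi-square test with 3 degrees of freedom passed at an adjusted p of 0.05 (Benjamini-Hochberg over 12626 genes) and its highest and lowest scaled counts differed at least 2-fold. The call was met by 30 of the 128 members, or 23.4%, against 21.5% of the 8040 protein-coding genes at the same level and 33.0% of all genes tested, so the members varied about as often as other genes. The chi-square test alone passed in 124 of 128, against 96.0% of the 8040 genes and 88.6% of all genes tested. The 4 that did not pass were Slc25a17, Slc35d2, Slc22a5 and Slc16a13. The median member had a range of 1.56-fold, against 1.52-fold for the 8040 genes. The median biological coefficient of variation (edgeR, tagwise) was 24.3% for members, against 24.1%. The deposited credibility intervals of the highest and the lowest library were apart in 111 of 128 members, against 83.6% of the 8040 genes.

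The library in which a member was highest or lowest was counted beside the same count over the 8040 genes. Replicate 3 was the lowest library for 56 of the 128 members, against 25.9% of the 8040 genes, and the highest for 15, against 18.9%. Replicate 2 was the highest for 43 members, against 21.5%. Replicate 1 was the highest for 38 and the lowest for 40, against 35.5% and 33.5%. These counts are descriptions, and in replicate 3 neutrophil markers summed highest, mitochondrial genes took 91039 TPM, against 39604 to 63095 TPM in the others, and nuclear protein-coding genes had their lowest total, 784474 TPM. Their part in the counts was not tested.

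Of the 30 variable members, 17 were lowest and 10 were highest in replicate 1, against 40.9% and 42.5% of the 1732 variable genes at the same level. Slc7a8 had the widest range, 5.13-fold, with a scaled count of 19572 in replicate 1 and 3814 to 4715 in the others. Slc26a11, a member of the sulfate and anion family reported in lysosomes (chr11:119355557-119381079, plus strand), had a 4.56-fold range. Its scaled counts were 347, 1586, 947 and 1140.1 in replicates 1 to 4 (chi-square adjusted p of 1.53e-145). Slc39a14 had a range of 4.08-fold, with 1279 in replicate 1 and 314 to 489 in the others. Slc46a3, a lysosomal carrier of the folate carrier family, had 878, 3304, 2202 and 2828, a 3.76-fold range. In Slc7a8 and Slc39a14 replicate 1 alone was high, and in Slc26a11 and Slc46a3 it alone was low.

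Without replicate 1, 5 of the 30 kept the call, which were Slc6a8, Slc38a2, Slc25a37, Slc9a7 and Slc12a9, and the share among the 8040 genes fell to 7.34%. Without replicates 2, 3 and 4 the counts of variable members were 22, 25 and 29, where 17.1%, 17.2% and 19.1% of the 8040 genes were called. Slc25a37 and Slc9a7, a sodium-proton exchanger of the Golgi, were called whichever library was left out. Slc9a7 had scaled counts of 249, 602, 236 and 492, high in replicates 2 and 4, as Slc25a37 was with 1834, 4168, 2275 and 5023. Proliferation markers summed to 964, 261, 520 and 332 TPM in replicates 1 to 4, of which Pcna gave 653, 174, 377 and 252 TPM. Mki67 had another order, with 38.3, 49.2, 34.6 and 27.7 TPM. The summed proliferation markers and ribosomal RNA counts (12.4%, 3.43%, 4.70% and 7.28%) also set replicate 1 apart, and their part in these differences was not tested.

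**Figure D3:**
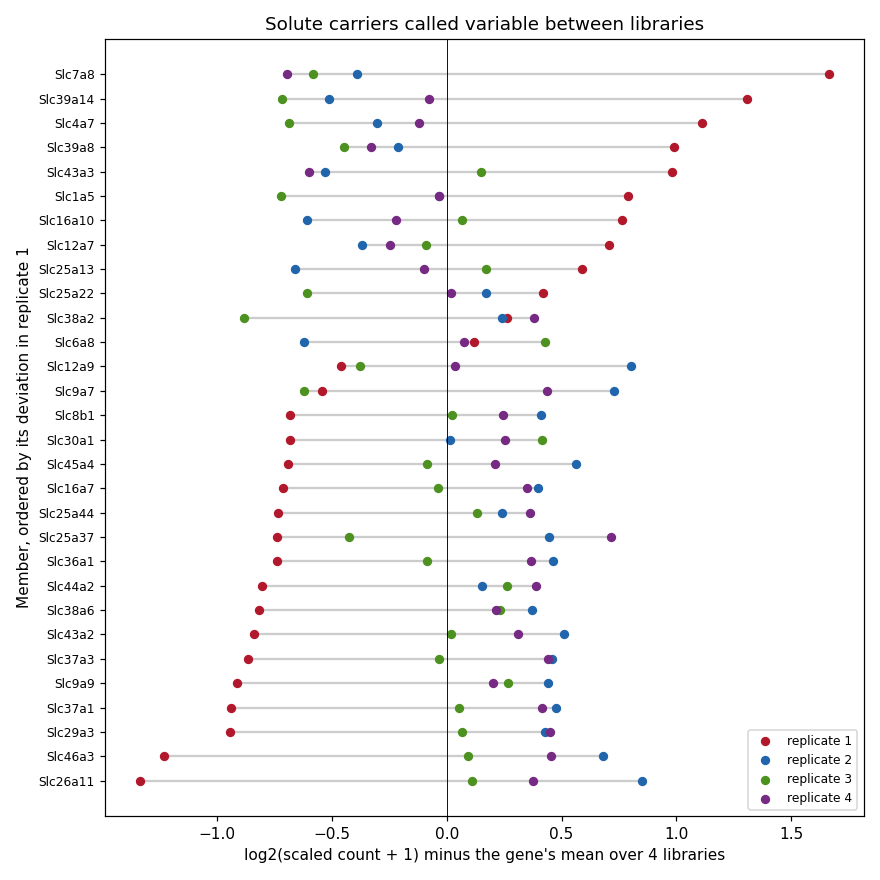
Deviation of each library from the gene's mean on the log2(scaled count + 1) scale (horizontal axis) for the 30 variable members (vertical axis, ordered by replicate 1), 1 coloured point per library. Replicate 1 lies at the right end for 10 members and at the left end for 17.

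The 5 members of lowest dispersion (edgeR, tagwise) were Slc39a7, Slc30a5, Slc8a1, Slc25a11 and Slc25a39. Slc30a5, which brings zinc into the secretory pathway, had a 1.19-fold range of scaled counts and Slc8a1, the sodium-calcium exchanger of the cell surface, a 1.23-fold range. Slc39a1 had the narrowest range of all members, 1.08-fold, against 1.22-fold in Slc39a7, 1.25-fold in Slc25a11 and 1.21-fold in Slc25a39. Dispersion and range thus did not order the members alike. The first 5 are carriers of zinc, calcium and mitochondrial metabolites.

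Members were also grouped by where their protein usually resides, a list made after values were seen. The 14 members of lysosomes and endosomes included Slc15a3, Slc9a9, Slc48a1, Slc46a3, Slc29a3, Slc15a4, Slc38a7, Slc17a5, Slc26a11, Slc36a1, Slc38a9 and Slc31a2. By scaled count those not named were lowest in replicate 3. They summed to 796, 1143, 1094 and 1145 TPM in replicates 1 to 4. Slc15a3 alone gave 353 to 513 TPM of these sums. The sum of replicate 4 held 88.5 TPM of Slc15a4, against 20.4 to 31.15 TPM in the others. Most of those 88.5 TPM were assigned to a short processed transcript described below. By scaled count, 9 of the 14 were lowest in replicate 1, against 33.5% of the 8040 genes, 5 in replicate 3 and none in replicates 2 and 4. 10 were highest in replicate 2, against 21.5%, and none in replicate 1. Their median deviation from the gene's own mean was -0.54, 0.35, 0.08 and 0.20 on the log2 scale in replicates 1 to 4. The medians of all 8040 genes were 0.00, -0.01, -0.03 and 0.04. 5 of the 14 were called variable, against 21.5% of the 8040 genes.

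Within this group the sialic acid exporter Slc17a5 had scaled counts of 1070, 1972, 1694 and 1824, and the proton-coupled amino acid carrier Slc36a1 had 1186, 2728, 1867 and 2552. Slc38a9, which relays lysosomal arginine to the mTORC1 kinase complex, had 583, 1105, 1093 and 1085. In each of these replicate 1 was the lowest. Not all members of the group followed this order. Of the 14, 5 were lowest in replicate 3, among them Slc48a1 with 6480.2, 6463, 6180 and 7018. Slc15a4 had 1071, 1623, 1026 and 1485, and Slc31a2 had 2331, 3111, 1887 and 1929. Outside the Slc symbols, the lysosomal cystine exporter Ctns had 15.1, 38.8, 25.3 and 36.5 TPM in replicates 1 to 4. It was picked after its values were seen from a list of 36 transporters and partners, whose genes went both ways. Clcn7, with 71.0, 115.6, 96.8 and 125.1 TPM, was also lowest in replicate 1. Ostm1, with 52.5, 51.1, 60.6 and 50.9 TPM, and Mfsd8, with 8.02, 7.23, 8.08 and 6.06 TPM, were not.

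**Figure D4:**
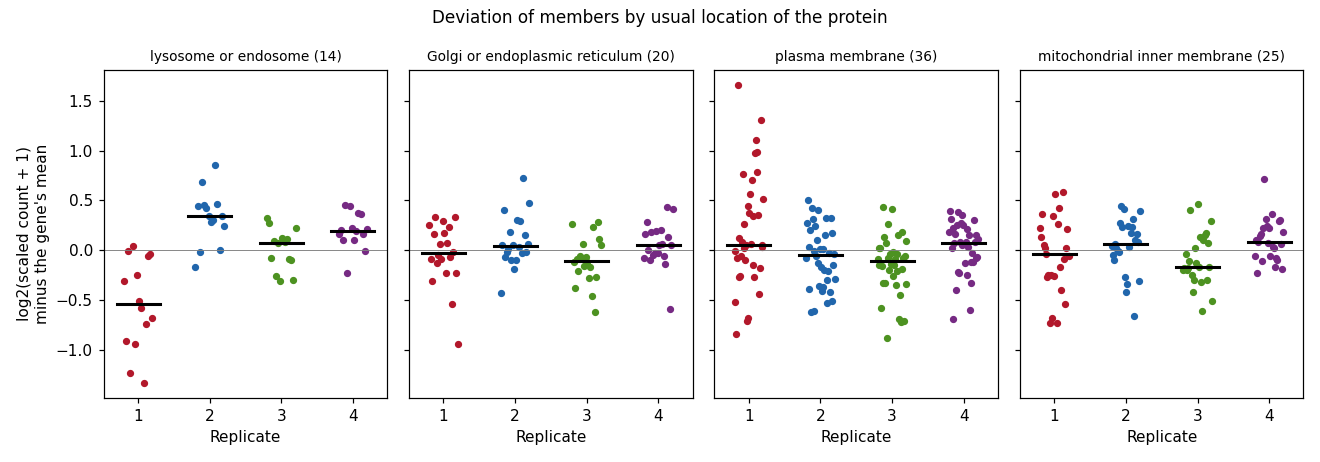
Deviation of each member from its own mean on the log2(scaled count + 1) scale (vertical axis) in replicates 1 to 4 (horizontal axis), for 4 usual locations of the protein, with the median as a bar. Only the panel of lysosome and endosome members has a median far below 0 in replicate 1 (-0.54), while the other 3 panels have medians between -0.17 and 0.08 in every library.

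The 20 members of the Golgi and endoplasmic reticulum had a median range of 1.32-fold, with 2 called variable, against 21.5% of the 8040 genes. The 25 members of the mitochondrial inner membrane had a median range of 1.53-fold, with 5 variable, and the 36 of the plasma membrane 1.71-fold, with 13 variable. In replicate 1, 14 of the 36 surface members were highest and 11 lowest, near the shares of 35.5% and 33.5% of the 8040 genes. Members of family 37 also differed in their order of libraries. Slc37a2 had 155, 86.9, 129.6 and 99.9 TPM, whereas Slc37a3 had 8.39, 16.8, 13.9 and 19.0 TPM and Slc37a1 had 3.22, 8.83, 8.50 and 8.97 TPM, so that by TPM the first was highest and the others lowest in replicate 1. By scaled count Slc37a2 was about as high in replicate 1 (14219) as in replicate 3 (14280).

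TPM and scaled counts did not always order the libraries alike, since TPM also follows which transcripts the reads are assigned to. Slc15a4, which exports histidine from endolysosomes, had 20.9, 31.1, 20.4 and 88.5 TPM in replicates 1 to 4. Of the 88.5 TPM in replicate 4, 56.1 TPM were assigned to Slc15a4-211, a processed transcript of 166 bases that was at 0 in the other 3 libraries. The second quantification, from the other deposited transcript tables, gave that transcript 0 TPM in replicates 1, 3 and 4 and 4.31 TPM in replicate 2. The scaled counts of Slc15a4 were 1071, 1623, 1026 and 1485, a 1.58-fold range. Slc15a4 was 1 of 3 members whose mean differed over 1.5-fold between quantifications, with 20.5 TPM in the second and 40.2 TPM in the first. The zinc carrier Slc30a9 (25.0 and 15.7 TPM) and Slc35a4 (44.3 and 73.0 TPM) were the others. The median ratio of the second to the first quantification was 0.782 for members and 0.775 for the 8040 genes.

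For most members the level of the gene was the level of its protein-coding transcripts. The median member had 96.6% of its TPM in them, 108 members had at least 50% in 1 main transcript, and the main transcript was the same in both quantifications for 115. The main transcript changed between libraries in 21 members. In 4 members it was not protein-coding, and there the gene level says little about the message for the carrier. In Slc27a1 the protein-coding transcripts held 6.41% ± 4.10 (SD, n = 4) of the TPM, with retained-intron transcripts leading in every library. They amounted to 1.77, 5.31, 2.33 and 2.75 TPM in replicates 1 to 4, against 70.0, 43.7, 46.8 and 46.2 TPM for the gene. In Slc25a12, the aspartate-glutamate carrier, they held 16.6% ± 0.896, with a transcript marked for nonsense-mediated decay leading in every library. Its paralog Slc25a13 was a variable member at 19.4, 8.11, 14.3 and 11.0 TPM. Protein-coding transcripts held 35.4% ± 2.77 of Slc35b4, a nucleotide sugar carrier, and 32.6% ± 11.9 of Slc4a7. In Slc25a37 the share was 48.3% ± 5.71.

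Counted over protein-coding transcripts alone, 6 members fell below 5 TPM. These were Slc27a1 (3.04 TPM), Slc25a12 (3.23 TPM), Slc4a7 (3.99 TPM), Slc37a1 (4.08 TPM), Slc38a9 (4.67 TPM) and Slc46a1 (4.91 TPM). The order of carriers changed most for Slc27a1, which led the lipid carriers by gene level. By protein-coding transcripts it had 3.04 TPM in the first quantification and 9.32 TPM in the second, so whether it lay under 5 TPM depended on the quantification. The order of Slc15a3 and Slc25a5 changed as well, with 391 and 416 TPM in protein-coding transcripts by the first quantification and 309 and 301 TPM by the second.

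**Figure D5:**
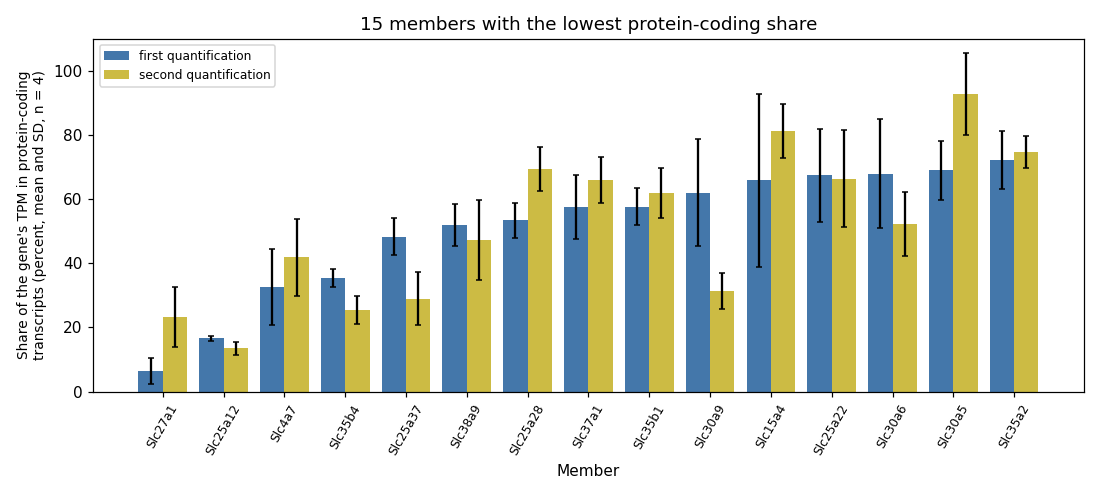
Share of a gene's TPM in protein-coding transcripts (vertical axis, percent, mean with SD over 4 libraries) for the 15 members with the lowest share (horizontal axis), in the first and second quantification. Slc27a1 (6.41% and 23.3%) and Slc25a12 (16.6% and 13.5%) are lowest in the first quantification, and both stay under 50% in the second.

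21 members overlap another protein-coding gene, 19 of them a gene on the other strand, so that without a known strand setting some of their reads may belong to the partner. The overlaps include Slc39a13 with Psmc3 (4579 bases, partner at 134 TPM) and Slc31a1 with Cdc26 (8116 bases, partner at 29.3 TPM). Slc4a2 overlaps Fastk by 2511 bases (partner at 18.5 TPM). 3 pairs of members lie within 100 kb, and besides both pairs named above these are Slc29a1 and Slc35b2, 17.5 kb apart on chromosome 17. Slc29a1 had 43.5, 71.4, 39.5 and 56.8 TPM and Slc35b2 43.9, 71.9, 40.0 and 62.6 TPM in replicates 1 to 4. The pair stood in the same order of libraries.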

How the data were processed

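Polyadenylated RNA of 4 macrophage libraries was sequenced, and each library had 1 gene table and 2 transcript tables. Per the deposited text lists they were made on mm10 with GENCODE M21, and these lists name 6 read files for replicates 1 and 2 and 4 for replicates 3 and 4. Aligner, counter and strand are not named in the sources used here. Per the file headers the deposited tables hold expected counts, which need not be whole, TPM (maximum likelihood and posterior mean), the percent of a gene's TPM in each transcript, and the bounds of a credibility interval of the TPM, a non-negative signal of unstated level. From the second transcript tables come the authors' TPM and estimated counts, added up per gene as the second quantification. TPM is scaled over all rows, ribosomal RNA included, so it moves with those rows.

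Rows that are not genes held 0.103% to 0.118% of counts and were left out. Expected counts were rounded and scaled by TMM (edgeR 4.0.16, limma 3.58.1, R 4.3.3). DESeq2 1.42.0 gave alternative size factors. Per gene with a mean count of at least 10, counts were tested against counting noise with a chi-square test, which covers counting error only, and p-values measure only the spread between these samples. It was tested on simulated counts. Python 3.11.15, NumPy 2.4.6, SciPy 1.17.1, pandas 2.3.3 and matplotlib 3.10.9 did the rest. Means and SDs are over 4 libraries. Substrate groups follow family numbers. Named members were the 3 highest of each group, the 15 widest ranges, the 5 least dispersed, and those at the threshold or whose quantifications or main transcripts differed. Slc25a51, Slc25a1, Slc25a28, Slc7a7, Slc38a1, Slc38a2, Slc30a1, Slc16a7, Slc4a2, Slc36a1, Slc38a9, Slc37a3, Slc35c1, Slc35a1 and members named only for a neighbour, overlap, location or promoter were chosen after their values were seen. The members, groups, lists and this rule were chosen with earlier results of these data known. Alternatives tried were other scalings, thresholds, both quantifications, protein-coding TPM and leaving out each library. Proteins are not shown, and values of some single members are not reported here.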

Additional observations from a re-analysis of the deposited data

Results flagged for a closer look

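In 18 of 140 values examined (12.9%, over 128 members and 12 group sums), 1 library stood apart from the other 3 by more than Dixon's 95% criterion for 4 samples allows. Chance alone flags about 1 in 20 groups, and the values share libraries, so they are not independent. The criterion was not applied to the other genes, so whether these shares are particular to solute carriers was not tested. By scaled count replicate 1 was the highest library for 35.5% of the 8040 genes at the same level. In 11 members replicate 1 stood alone as the highest. These were Slc7a8 (251 TPM, against 43.8 to 59.2 TPM), Slc27a1 (70.0 TPM, against 43.7 to 46.8 TPM), Slc30a5 (39.3 TPM, against 32.5 to 33.2 TPM), Slc25a24 (33.2 TPM, against 17.3 to 19.9 TPM), Slc12a7 (30.2 TPM, against 15.2 to 16.9 TPM) and Slc35a3 (21.2 TPM, against 14.6 to 15.01 TPM). The same held for Slc30a6 (13.9 TPM, against 12.2 to 12.5 TPM), Slc10a7 (17.6 TPM, against 9.58 to 10.3 TPM), Slc43a3 (19.1 TPM, against 7.93 to 9.53 TPM), Slc39a8 (17.2 TPM, against 5.68 to 7.25 TPM) and Slc39a14 (16.9 TPM, against 3.66 to 5.72 TPM). The summed level of the lipid carriers was likewise highest in replicate 1, at 115 TPM, against 84.1 to 87.7 TPM in the others, and Slc27a1 makes up most of that sum. Replicate 1 stood alone as the lowest for Slc44a2 (14.01 TPM, against 25.1 to 27.1 TPM) and Slc37a1 (3.22 TPM, against 8.50 to 8.97 TPM). Replicate 3 stood alone as the lowest for Slc25a11 (58.4 TPM, against 70.8 to 72.9 TPM), Slc38a2 (19.0 TPM, against 44.2 to 45.9 TPM) and Slc4a2 (16.0 TPM, against 20.8 to 21.4 TPM). Replicate 4 stood alone as the highest for Slc15a4 (88.5 TPM, against 20.4 to 31.1 TPM), the value that rests on a short processed transcript.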

How the results depend on the processing

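No paired analysis was possible because all libraries belong to 1 group. The number of members was 125 to 130 when each library was left out, 121 by the second quantification, 134 with TPM rescaled over nuclear protein-coding genes, 122 over protein-coding transcripts, 163 at 1 TPM and 102 at 10 TPM. The number of variable members was 30 with DESeq2 size factors, 30 with no filter on low counts, 32 without TMM and 30 in the second quantification, 28 of them shared with the first. It was 74 at a 1.5-fold range, where 52.0% of the background genes were called, and 5 to 29 when each library was left out, lowest without replicate 1. By the second quantification and by rescaling over nuclear protein-coding genes, in that order, the summed levels were 75.6 and 115 TPM for lipids, 1058 and 1728 TPM for mitochondrial carriers, 449 and 715 TPM for monocarboxylates and peptides, 1110.2 and 1702 TPM for amino acids, 349.5 and 558 TPM for nucleotide sugars. They were 48.4 and 76.1 TPM for organic cations and choline, 287 and 445 TPM for sodium, calcium and other ions, 173 and 255 TPM for sugars, 204 and 327 TPM for vitamins and heme and 492 and 764 TPM for zinc and other metals. Rescaling changes only the total that TPM is taken over. For the second quantification the cause was not tested. The sums for nucleosides and for phosphate and anions moved by less than 1 SD, and posterior mean TPM or leaving out a library moved none of the 12 sums by over 1 SD. Under DESeq2 size factors, no TMM or the second quantification, 9 of 14 lysosomal and endosomal members were lowest in replicate 1 each time, and 49 to 56 members were lowest in replicate 3. These last counts and the protein-coding count were added after seeing the data. Of 67 named members, the range kept its side of the 2-fold threshold for all under DESeq2 size factors and for all but Slc8b1 in the second quantification. The lowest count of any member in any library was 116, and the use of 4 libraries limits the precision of each SD.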

Other observations

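Transporters and partners without an Slc number were read from a list of 36 genes. Of these, 30 reached 5 TPM on average, and 10 of the 33 tested were called variable between libraries. The call was met by 33.0% of all genes tested and by 21.5% of the 8040 protein-coding genes at 5 TPM or more. Among the 10, Slco3a1, Slco4a1 and Atp1b1 averaged under 5 TPM. The mitochondrial proton carrier Ucp2 averaged 836 ± 66.7 TPM (SD, n = 4), above every member. Bsg, the partner that brings lactate carriers to the cell surface, averaged 259 ± 10.8 TPM, while its relative Emb had 34.5, 137, 67.6 and 119.9 TPM in replicates 1 to 4, lowest in replicate 1. Mpc1, a subunit of the mitochondrial pyruvate carrier, had 176, 332, 337 and 295 TPM, again lowest in replicate 1, and its partner subunit Mpc2 had 44.7, 38.1, 41.4 and 28.3 TPM. Unc93b1, which escorts Toll-like receptors to endosomes, had 279.7, 584, 375 and 440.1 TPM.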
